A study of Homo sapiens with 12 samples.

Results

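PHOX2A, HAND1, HAND2, GATA2, GATA3, ISL1, TBX2 and LMO1 are regulators of the sympathetic lineage that are counted among the core transcription factors of adrenergic neuroblastoma. They were taken by symbol from the table of counts per gene, and are 8 of its 61552 genes. All 8 passed the filter on low counts. RNA came from cultured human neuroblastoma cells in 12 libraries, 3 in each of 4 groups: cells labelled SK-N-AS without and with ML210, and cells labelled SK-N-BE(2) without and with ML210. All libraries carry the genotype label WT, and the cells were cultured overnight with ML210, at a dose that is not given in the sources used here. ML210 blocks the selenoprotein GPX4, which clears peroxidised membrane lipids and so holds back ferroptosis. Each group is 1 established cell line, and the 3 libraries of a group carry batch labels 1 to 3. No label says that these were separate cultures, so the p-values measure the spread between these libraries, which may be technical.

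Core transcription factors of this kind are known to bind their own enhancers and each other's, and so hold a cell in 1 state. PHOX2A is a paired-type homeodomain protein of noradrenergic neurons. HAND1 and HAND2 are basic helix-loop-helix (bHLH) proteins that pair with E proteins. GATA2 and GATA3 are zinc-finger proteins, ISL1 is a LIM-homeodomain protein, TBX2 is a T-box repressor, and LMO1 is a LIM-only cofactor that joins LDB1 to DNA-bound partners without binding DNA itself. Neuroblastoma cells occur in an adrenergic state, marked by these factors and by catecholamine genes, and in a mesenchymal state.

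The line labels were contradicted by MYCN, which the series design calls amplified in SK-N-BE(2). MYCN stood at 3558 ± 122 CPM (counts scaled to library size by TMM; SD, n = 3) in the control libraries with the label SK-N-AS and at 0.166 ± 0.0727 CPM in those with the label SK-N-BE(2). Every direction between lines below is therefore one between labels, and each of the 12 libraries is named by its label. GPX4, the target of the inhibitor, did not pass the test between ML210 and control under either label (edgeR quasi-likelihood adjusted p = 0.751 and 0.667). An inhibitor of the protein need not move its mRNA, so GPX4 is no check of the treatment. The summed level of 10 genes of noradrenergic cells lay between 7419 and 7878 CPM in the control libraries with the label SK-N-AS and between 869.9 and 1440 CPM in those with the label SK-N-BE(2). The summed level of 15 mesenchymal-state factors, of which MEOX1 and MEOX2 had no read, lay between 244.6 and 258 CPM and between 784 and 850.04 CPM in the same groups. All 10 noradrenergic genes had reads in each group, and 8 of them reached at least 1 CPM in all libraries of the label SK-N-BE(2). In bulk RNA, fewer cells of a type and less RNA per cell cannot be told apart.

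Promoter windows of 250 bases before the transcript start were read from RefSeq (GRCh38.p14), which gave 13 windows for 7 of the 8 genes. TBX2 had no entry. The windows of PHOX2A, HAND2 and LMO1 are printed, chosen after the values were seen. PHOX2A was the member called lower with ML210, HAND2 was the member that differed least between the labels, and LMO1 was the member of lowest level. The 5 motifs searched on both strands were the E-box CANNTG of bHLH proteins, the GATA site AGATAA, the homeodomain core TAAT, the T-box motif GGTGTGA and the antioxidant response element core TGACNNNGC. Capitals mark every match, and overlapping matches run together.
PHOX2A, chr11:72244177-72244426, minus strand: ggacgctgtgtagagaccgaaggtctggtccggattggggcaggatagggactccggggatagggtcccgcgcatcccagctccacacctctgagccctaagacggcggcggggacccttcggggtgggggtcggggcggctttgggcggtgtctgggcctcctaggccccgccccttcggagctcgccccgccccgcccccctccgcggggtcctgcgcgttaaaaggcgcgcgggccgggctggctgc
HAND2, chr4:173530230-173530479, minus strand: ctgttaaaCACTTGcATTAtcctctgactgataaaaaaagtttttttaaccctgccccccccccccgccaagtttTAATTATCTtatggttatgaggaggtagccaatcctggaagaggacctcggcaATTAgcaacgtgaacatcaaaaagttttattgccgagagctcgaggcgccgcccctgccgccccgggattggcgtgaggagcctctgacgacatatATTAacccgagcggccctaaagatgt
LMO1, chr11:8268788-8269037, minus strand: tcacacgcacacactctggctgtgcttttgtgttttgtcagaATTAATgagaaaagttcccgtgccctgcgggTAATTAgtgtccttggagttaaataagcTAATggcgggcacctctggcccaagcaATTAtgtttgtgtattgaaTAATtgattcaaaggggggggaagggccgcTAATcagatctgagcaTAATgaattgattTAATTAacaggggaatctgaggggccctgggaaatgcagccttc
The window of PHOX2A had a GC content of 73.2% and no match of any of the 5 motifs. That of HAND2 had 49.6% GC, 1 E-box, 1 GATA site and 5 TAAT cores. The LMO1 window, at 45.6% GC, held 11 TAAT cores and no other match. Over 35116 such windows of all genes the median GC content was 58.0%, and the share with at least 1 match was 61.8% for the E-box, 9.17% for the GATA site, 47.4% for TAAT, 2.76% for the T-box motif and 10.9% for the antioxidant core. A match is a run of letters and not a bound site, and the lack of one says only that these letters are not in this window.

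In untreated cells, 7 of the 8 factors were lower and TBX2 was higher in the libraries that bear the label SK-N-BE(2) than in those with the label SK-N-AS, although HAND2, the smallest difference, stood at 0.01 on the log2 scale with library totals in place of TMM (edgeR adjusted p = 0.863). HAND1 differed most, at 13.8-fold, followed by PHOX2A at 4.73-fold and GATA2 at 3.76-fold. In this comparison 69.2% of the 20304 genes tested were called, 35.2% lower and 33.9% higher, so being called is what most genes did. The median log2 difference was -1.27 over the 8 members and -0.01 over all genes tested.

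PHOX2A (ENSG00000165462, chr11:72239077-72245664, minus strand, GRCh38) was steady within each group of controls. It stood at 610.5, 613 and 604 CPM in batches 1, 2 and 3 labelled SK-N-AS, and at 117, 139.97 and 129.6 CPM in those with the label SK-N-BE(2). The lowest library of the first group held over 4 times the level of the highest of the second, and the log2 difference was -2.24 (SE 0.12, edgeR adjusted p = 4.4e-09).

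The HAND genes, bHLH factors of sympathetic and cardiac development, separated. HAND1 (ENSG00000113196, chr5:154474972-154478264, minus strand) stood at 592, 417 and 427 CPM in the control libraries with the label SK-N-AS and at 32.4, 40.2 and 31.4 CPM in those with the label SK-N-BE(2). The batch 1 library was high in the first group, yet the groups were far from overlapping (log2 -3.79, SE 0.202, adjusted p = 3.83e-08). HAND2 (ENSG00000164107, chr4:173524969-173530229, minus strand) stood at 545.5, 607 and 584 CPM labelled SK-N-AS and at 467, 512 and 495 CPM labelled SK-N-BE(2). Its groups did not overlap, but the difference was only 15.1% of the mean (log2 -0.24, SE 0.0642, adjusted p = 0.00482). This call rests on the scaling: library totals moved the median log2 difference of all genes from -0.01 to 0.243, and HAND2 moved with it.

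Both GATA factors were lower under the label SK-N-BE(2). GATA2 (ENSG00000179348, chr3:128479427-128493185, minus strand), a regulator of sympathetic and blood progenitors, stood at 1244, 1217 and 1095 CPM in control libraries with the label SK-N-AS and at 305, 324 and 316 CPM in those with the label SK-N-BE(2) (log2 -1.91, SE 0.085, adjusted p = 1.84e-10). GATA3 (ENSG00000107485, chr10:8045378-8075203, plus strand), required for noradrenergic differentiation, stood at 303, 250.3 and 232 CPM and at 158, 142 and 147 CPM (log2 -0.81, SE 0.113, adjusted p = 3.17e-05). In neither gene did the libraries of the labels overlap, and the difference was larger in GATA2. Their relative GATA4, best known from heart and gonad, was higher under the label SK-N-BE(2), at 136 and 196 CPM (log2 0.53, adjusted p = 9.57e-05).

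Of the LIM proteins, ISL1 (ENSG00000016082, chr5:51383391-51394738, plus strand), a factor of sympathetic and motor neurons, stood at 96.7, 110.04 and 111 CPM in the control libraries with the label SK-N-AS. It stood at 39.4, 35.7 and 42.7 CPM in those with the label SK-N-BE(2) (log2 -1.43, SE 0.105, adjusted p = 3.51e-08). LMO1 (ENSG00000166407, chr11:8224304-8268716, minus strand), a known neuroblastoma susceptibility gene, was by far the lowest member. It stood at 5.31, 7.90 and 9.21 CPM labelled SK-N-AS and at 3.38, 2.66 and 4.4 CPM labelled SK-N-BE(2), groups that lie close but do not overlap (log2 -1.10, SE 0.317, adjusted p = 0.00778). Its relative LMO2, a LIM-only factor of blood and endothelial cells, differed more, at 18.6 and 2.55 CPM (log2 -2.87, adjusted p = 3.72e-11).

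TBX2 (ENSG00000121068, chr17:61399896-61409466, plus strand), a repressor in cell-cycle control, was the member that was higher under the label SK-N-BE(2). It stood at 172, 132 and 121 CPM in the control libraries with the label SK-N-AS and at 347, 325 and 329 CPM in those with the label SK-N-BE(2) (log2 1.24, SE 0.15, adjusted p = 1.95e-05). The groups were well apart. The related repressor TBX3 was lower under that label, from 232 to 130.25 CPM (log2 -0.83, adjusted p = 1.97e-05).

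**Figure D1:**
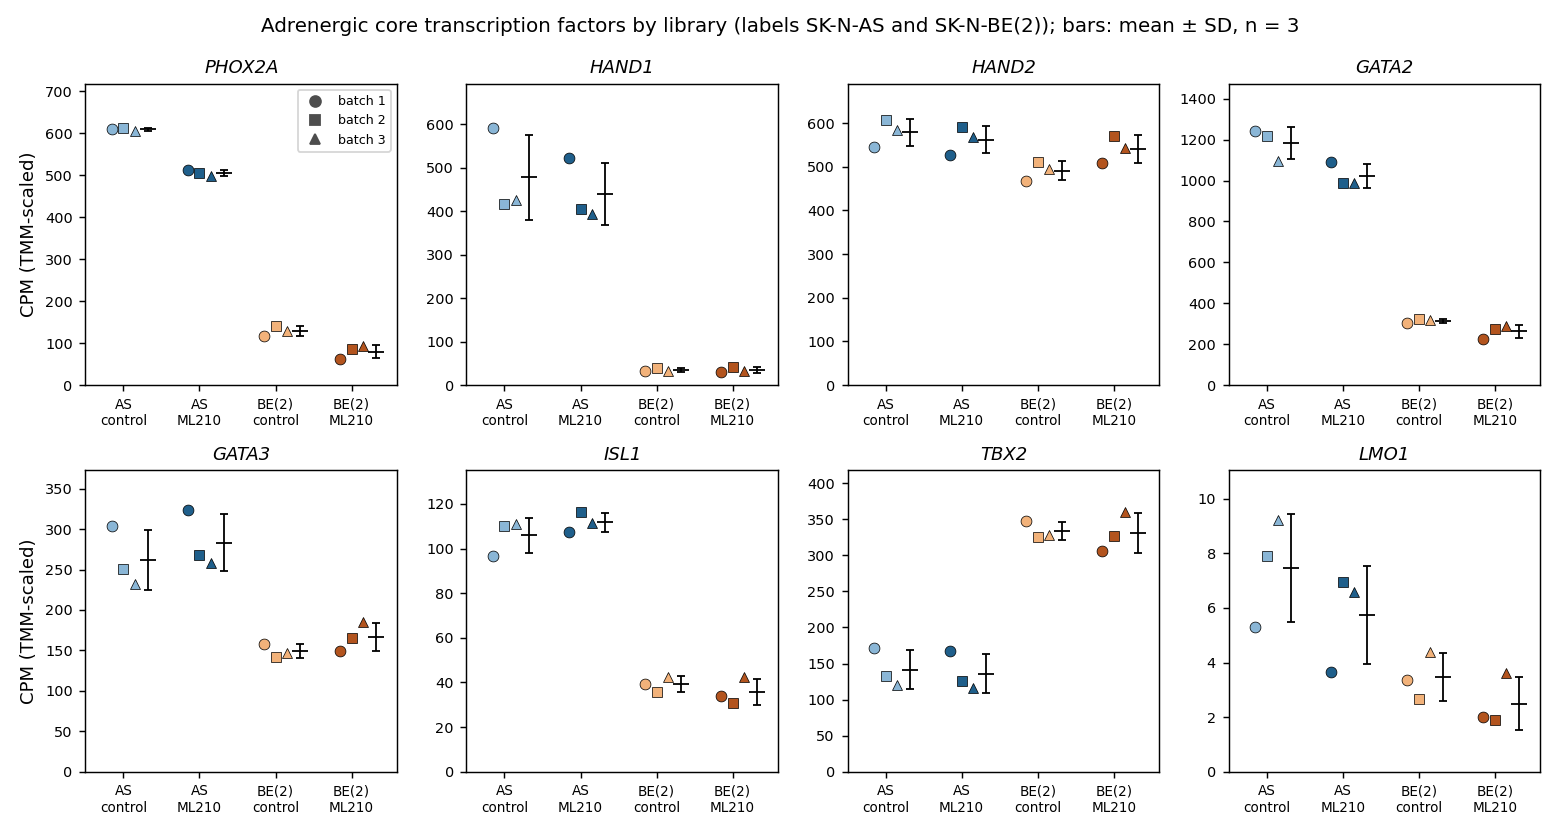
TMM-scaled CPM (vertical axes, from 0, a scale for each gene) of the 8 factors in each library; points are libraries shaped by batch, and the bars beside them are the mean ± SD of 3 libraries. TBX2 is higher in the libraries that bear the label SK-N-BE(2), HAND2 is nearly level across the groups, and the other 6 are lower there, with PHOX2A at 129 ± 11.4 CPM without and 79.8 ± 16.0 CPM with ML210.

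Among ML210 libraries, which share no library with the controls, the labels differed in the same way for 7 members: PHOX2A, HAND1, GATA2, GATA3, ISL1 and LMO1 were lower and TBX2 was higher under SK-N-BE(2). In this comparison 69.0% of the genes tested were called, 34.5% lower and 34.6% higher. The log2 differences were -2.66 for PHOX2A, -3.67 for HAND1, -1.96 for GATA2, -0.77 for GATA3, -1.64 for ISL1, 1.28 for TBX2 and -1.20 for LMO1 (edgeR adjusted p between 1.6e-10 for GATA2 and 0.00506 for LMO1). HAND2 did not pass the test, at 562 ± 31.9 CPM labelled SK-N-AS and 541 ± 31.4 CPM labelled SK-N-BE(2) (log2 -0.06, SE 0.0642, 95% interval -0.20 to 0.08, adjusted p = 0.446), and its libraries overlapped. The members' median was -1.42 and that of all genes 0.02.

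**Figure D2:**
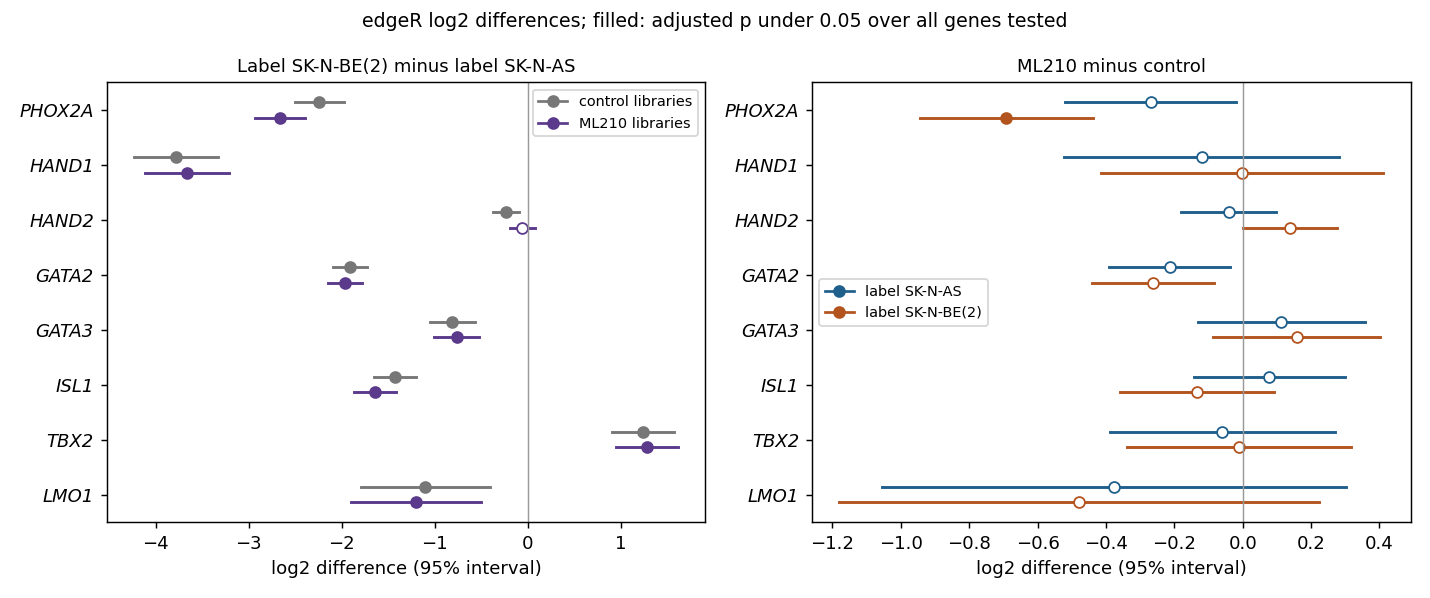
edgeR log2 differences (horizontal axes) of the 8 factors with their 95% intervals, on the left between the labels in control and in ML210 libraries, on the right between ML210 and control under each label; filled points have an adjusted p under 0.05 over all genes tested. On the left every point is filled except HAND2 in ML210 libraries, and on the right PHOX2A labelled SK-N-BE(2), at -0.69, is the filled point.

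Other genes tied to these factors were given by lists. Their counts between the labels in controls stand beside the 69.2% of all genes tested that were called. Of 15 other adrenergic-state transcription factors, 5 were higher and 10 lower in control libraries with the label SK-N-BE(2) (median log2 -0.43). With library totals the counts were 5 and 7. SIX3, a homeobox factor, went from 41.9 to 0.468 CPM and the zinc-finger factor ZNF536 from 39.9 to 0.0325 CPM, while SOX11, a factor of immature neurons, went from 3.98 to 95.2 CPM. EYA1, a transcriptional coactivator, was lower (log2 -1.64). The list thus held genes that differed strongly in either direction.

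Partners and cofactors were read in the same control libraries, beside the 69.2% of all genes tested that were called. Of 7 bHLH partners and inhibitors of the HAND proteins, 3 were higher and 1 was lower under the label SK-N-BE(2), and library totals added ID2 to those higher. ID1, an inhibitor that binds E proteins without DNA contact, went from 91.7 to 226 CPM, the E proteins TCF4 and TCF3 differed by 0.68 and 0.34 on the log2 scale, and the E protein TCF12 by -0.50. Of 6 LIM and GATA cofactors, 0 were higher and 4 were lower: LYL1 (log2 -2.49), a bHLH factor of blood cells, LDB2 (from 14.1 to 0.112 CPM), the GATA cofactor ZFPM2 (log2 -1.28), and TAL1, which had 3.28 CPM in control libraries with the label SK-N-AS and no read in those with the label SK-N-BE(2). LDB1, the adaptor that LMO1 is known to bind, stood at 132 and 127 CPM (log2 -0.05, SE 0.0805, adjusted p = 0.562).

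Of 11 paralogs of the members, 9 were tested, 4 were higher and 4 lower in control libraries with the label SK-N-BE(2); besides those above, TBX4 (from 0.0584 to 1.56 CPM), ISL2 (0.0107 to 0.12 CPM) and LMO4 (39.5 to 46.3 CPM) were higher and LMO3 (2.80 to 1.4 CPM) was lower. GATA5, also called lower, had 0.818 CPM labelled SK-N-AS and no read in the control libraries with the label SK-N-BE(2). Of 5 antisense or divergent neighbours, HAND2-AS1 (log2 -0.69), GATA3-AS1 (-1.58) and ISL1-DT (-0.80) were lower and TBX2-AS1 (0.82) was higher, each on the same side as its neighbour by TMM; HAND2 itself was at 0.01 with library totals. GATA2-AS1 was higher (log2 0.27, adjusted p = 0.0217), on the other side from GATA2. Libraries were made with a stranded kit, but the strand setting of the counting is not given in the sources used here, so reads of a gene and of an antisense partner that overlaps it may be mixed.

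The genes that noradrenergic cells need to make, store and take up catecholamines, and the receptor gene RET, are known targets of this set of factors. Of 10 genes, RET among them, 0 were higher and 9 lower in the control libraries with the label SK-N-BE(2) (median log2 -4.32 against -0.01 over all genes). Tyrosine hydroxylase TH went from 292 to 0.372 CPM, dopamine beta-hydroxylase DBH from 632 to 5.06 CPM, and the vesicular transporters SLC18A2 and SLC18A1 differed by -5.11 and -4.17 on the log2 scale. The exception was RET, a receptor tyrosine kinase of sympathetic cells, at 529.7 and 722 CPM (adjusted p = 0.0546), which was called higher with library totals, with DESeq2 size factors and by DESeq2, and not with the block. Library totals no longer called GCH1 lower. Of 13 tested mesenchymal-state factors, 10 were higher and 0 lower, with a median of 3.80.

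Markers of other cell types also moved with the label, and their part in the differences was not tested. Summed epithelial markers lay between 12.7 and 16.3 CPM in control libraries with the label SK-N-AS and between 206 and 281 CPM in those with the label SK-N-BE(2), with KRT18, at 104 CPM, the most abundant in the latter. The defining epithelial genes EPCAM and CDH1 stood below 0.3 CPM in all 12 libraries. Blood markers lay between 1.81 and 3.6 CPM and between 264 and 329.8 CPM, nearly all of it PTPRC, with CD3E and HBB at no read in the libraries that bear the label SK-N-BE(2). Endothelial markers lay between 18.8 and 39.3 CPM and between 1.94 and 3.09 CPM, with CDH5 at 19.5 CPM in control libraries with the label SK-N-AS, and Schwann cell markers between 9.23 and 12.9 CPM and between 2.61 and 3.13 CPM.

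With ML210, PHOX2A fell in the libraries that bear the label SK-N-BE(2), and it was the member called there. Its controls stood at 117, 139.97 and 129.6 CPM and its ML210 libraries at 61.7, 85.8 and 92.0 CPM. All ML210 libraries lay below all controls, and batch 1 was lowest in both groups. The mean was lower by 38.1% of the control level (log2 -0.69, SE 0.116, 95% interval -0.94 to -0.44, edgeR adjusted p = 0.017). Of all genes tested 1.37% were called in this comparison, 0.557% lower. Within batches 1, 2 and 3 the log2 CPM differences were -0.93, -0.71 and -0.49, and the fit with the batch as a block gave -0.71 (adjusted p = 0.000174). The call was lost in a fit of the compared groups alone (adjusted p = 0.114). Leaving out SK-N-BE(2) control 2, control 3 or ML210 2 gave adjusted p = 0.0563, 0.0595 and 0.0525, while the log2 value stayed between -0.83 and -0.55 over the 6 libraries left out in turn.

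GATA2 was the next member, and its call depended on the model. In the libraries that bear the label SK-N-BE(2) it stood at 305, 324 and 316 CPM in controls and at 227, 274 and 287 CPM with ML210. All 3 ML210 libraries lay below the controls, with batch 1 lowest. The log2 difference was -0.26 (SE 0.0824, 95% interval -0.44 to -0.09, unadjusted p = 0.00693, edgeR adjusted p = 0.147). With the batch as a block it was called (log2 -0.27, adjusted p = 0.0189), as it was with no filter on low counts (adjusted p = 0.0398) and without SK-N-BE(2) ML210 3 (adjusted p = 0.034). With the block 6.83% of genes tested were called.

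The other 6 members did not pass the test labelled SK-N-BE(2), with or without the block. HAND2 stood at 467, 512 and 495 CPM in controls and at 508, 571 and 543 CPM with ML210. Its ML210 library was higher in all 3 batches, although the groups overlapped (log2 0.14, SE 0.0642, 95% interval -0.00 to 0.28, adjusted p = 0.372, and 0.0865 with the block). LMO1 stood at 3.38, 2.66 and 4.4 CPM without and 1.99, 1.88 and 3.6 CPM with ML210. It was lower in 3 of 3 batches with overlapping groups and a wide interval (log2 -0.48, 95% interval -1.18 to 0.22, adjusted p = 0.599). ISL1 stood at 39.2 ± 3.50 and 35.7 ± 5.88 CPM (log2 -0.13, 95% interval -0.36 to 0.09), also lower in 3 of 3 batches. HAND1 was at 34.7 CPM in both (95% interval -0.41 to 0.41), TBX2 at 334 and 331 CPM (-0.34 to 0.32), and GATA3 at 149 and 167 CPM (-0.09 to 0.40). Changes within these intervals could not be told from none with 3 libraries a group. The median over the 8 members was -0.07 and over all genes 0.00.

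The noradrenergic target genes were read in the same libraries. RET fell from 624, 734 and 807 CPM to 175.5, 257 and 295 CPM, the single called gene among the 10 noradrenergic genes (log2 -1.57, SE 0.191, adjusted p = 0.00965). The median of that list was -0.60. DESeq2 called RET, DDC and TH lower. With the block 7 of 10 were called lower, among them the aromatic amino acid decarboxylase DDC (log2 -0.63, adjusted p = 0.000502), GCH1, which makes the cofactor of TH (-0.52, 0.000639), and the granin CHGB (-0.87, 3.72e-05). The summed level of all 10 was 870, 1075 and 1440 CPM in control batches 1, 2 and 3 and 301, 438 and 730.1 CPM with ML210, so batch 1 was lowest and batch 3 highest in both. RET was the most abundant of the 10 in both groups, at a mean of 722 and 242 CPM, and weighs most in these sums.

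Of the 15 other adrenergic-state factors labelled SK-N-BE(2), 0 were called with ML210 by edgeR (3 at an unadjusted p under 0.05), with a median of -0.20, and DESeq2 called TFAP2B and HEY1 lower. With the block 5 were called lower: KLF7, KLF13, HEY1, TFAP2B and DACH1. The largest of these was TFAP2B, a factor of sympathetic development, from 69.4 to 40.5 CPM (log2 -0.82, adjusted p = 0.0407). Among partners, cofactors and paralogs the block called TCF4 (-0.40), LYL1 (-0.41) and GATA4 (-0.26) lower, and no antisense or divergent neighbour. Of the mesenchymal-state factors it called PRRX1 (-0.47) and SOX9 (-0.64) lower and FOSL1 higher (log2 0.81, adjusted p = 0.00424). Of the markers of other cell types it called the keratin KRT8 (-0.51) and the endothelial receptor KDR (-1.14) lower and the claudin CLDN4 higher (log2 0.68, adjusted p = 0.00771). Summed markers of mesenchymal state lay between 742 and 763 CPM with ML210, below the 784 to 850.04 CPM of controls. The most abundant of them, PRRX1, went from 257 to 186 CPM. The list as a whole did not shift, with a median log2 of -0.03 and 6 of 13 tested factors above 0 and 7 below. Blood markers lay between 163 and 289 CPM against 264 to 329.8 CPM, and epithelial markers between 192 and 296 CPM against 206 to 281 CPM. The part of these markers in the PHOX2A difference was not tested.

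**Figure D3:**
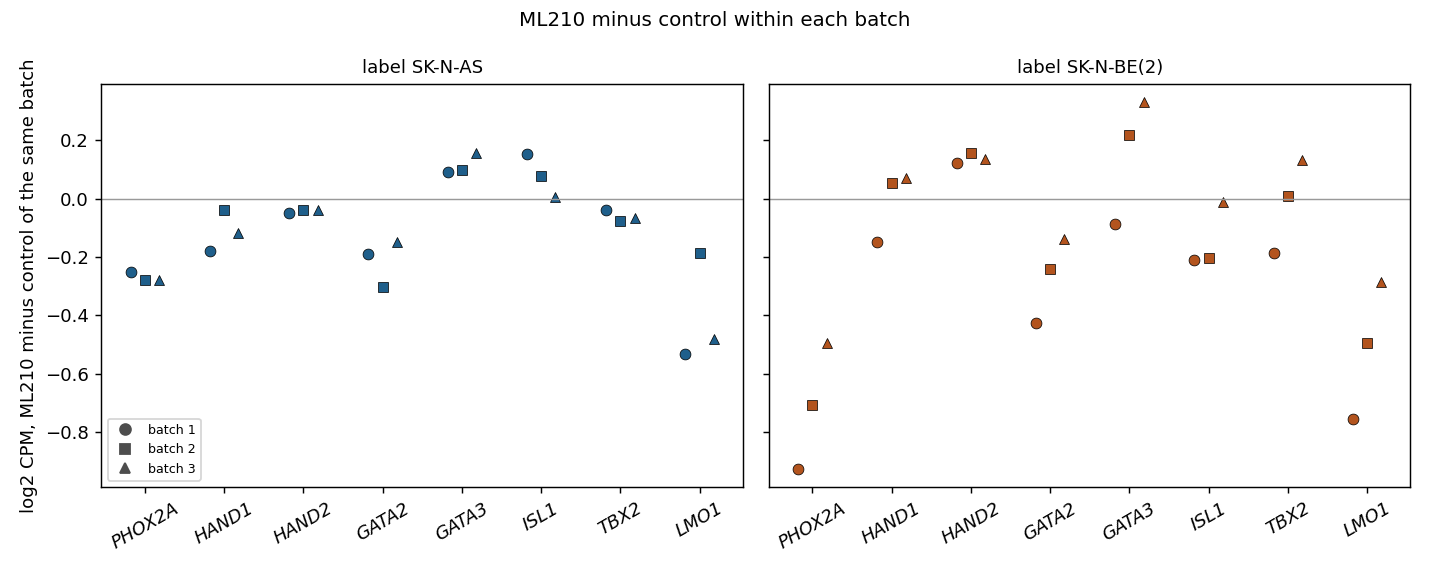
Log2 CPM of the ML210 library minus that of the control library of the same batch (vertical axis) for the 8 factors, labelled SK-N-AS on the left and SK-N-BE(2) on the right; each point is 1 batch and the line marks 0. PHOX2A lies between -0.93 and -0.49 on the right and between -0.28 and -0.25 on the left, and GATA2 and LMO1 lie below 0 in every batch in both panels.

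In the libraries labelled SK-N-AS, 0 of the 8 members were called with ML210 by edgeR, where 0.0296% of all genes tested were called, 0.0246% higher and 0.00493% lower. PHOX2A and GATA2 had an unadjusted p under 0.05, and DESeq2 called neither. PHOX2A stood at 610.5, 613 and 604 CPM in controls and at 513, 505 and 498 CPM with ML210. The groups were tight and did not overlap, with a mean lower by 17% (log2 -0.27, SE 0.115, 95% interval -0.52 to -0.02, unadjusted p = 0.0366, adjusted p = 0.701). In a fit of these 2 groups alone, which takes the spread from these libraries only, it was called (log2 -0.26, adjusted p = 0.048), and with the block it was not (adjusted p = 0.156). GATA2 stood at 1244, 1217 and 1095 CPM in controls and at 1091, 986 and 988 CPM with ML210, with no overlap (log2 -0.21, SE 0.0822, 95% interval -0.39 to -0.04, adjusted p = 0.649).

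The remaining 6 overlapped between ML210 and control labelled SK-N-AS. How often genes at large did not overlap was not counted, so overlap is given as a description. LMO1 had the largest value and the widest interval, at 5.31, 7.90 and 9.21 CPM without and 3.66, 6.94 and 6.60 CPM with ML210 (log2 -0.38, 95% interval -1.06 to 0.30). HAND1 stood at 478 ± 98 and 440.2 ± 71 CPM (-0.52 to 0.28), and HAND2 at 579 ± 30.9 and 562 ± 31.9 CPM (-0.18 to 0.10). GATA3 stood at 262 ± 37.1 and 283 ± 35.1 CPM (-0.13 to 0.36), ISL1 at 106 ± 7.94 and 112 ± 4.33 CPM (-0.14 to 0.30) and TBX2 at 142 ± 26.7 and 136 ± 27.4 CPM (-0.39 to 0.27). The members' median was -0.09 and that of all genes -0.01. In the other gene lists edgeR called 0 genes, with at most 1 gene of a list at an unadjusted p under 0.05. DESeq2 called RET lower, and with the block KLF13 and RET (log2 -0.83, adjusted p = 0.000747) were called lower.

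The PHOX2A response was larger labelled SK-N-BE(2), but the difference between the responses did not pass the test. It was -0.42 (SE 0.163, 95% interval -0.78 to -0.07, unadjusted p = 0.0236, adjusted p = 0.625), and was negative in 3 of 3 batches at -0.68, -0.43 and -0.22. The block gave -0.44 (adjusted p = 0.0727). Of the 8 members 0 were called for this difference by edgeR, where 0.00493% of all genes tested were called, and PHOX2A was the member with an unadjusted p under 0.05. DESeq2 called no member. For GATA2 the difference was -0.05 (95% interval -0.30 to 0.20), so that responses of like size and responses that differ by up to 0.30 on the log2 scale both fall within it.

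Batch 1 stood apart for 6 members labelled SK-N-AS, in control and ML210 alike. How often genes at large stood apart in this way was not counted, so the 6 are given as a description. Over all genes tested, deviations from the group means correlated at 0.357 between the batch 1 libraries of this label. HAND1, GATA3 and TBX2 were higher in both batch 1 libraries than in all 4 libraries of batches 2 and 3, by 1.36, 1.24 and 1.37 times. HAND2, ISL1 and LMO1 were lower there, at 0.914, 0.911 and 0.585 times. For LMO1 the batch 1 libraries held 5.31 and 3.66 CPM against 6.60 to 9.21 CPM in the others, a spread wider than its ML210 difference. PHOX2A and GATA2 overlapped between batches, and labelled SK-N-BE(2) all 8 members did. What the batches were is not given in the sources used here.

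Between genes, levels were compared per kilobase of exon (RPKM), with the merged exon length of GENCODE release 29. In control libraries with the label SK-N-AS the order was PHOX2A (342 RPKM), HAND1 (275), GATA2 (266), HAND2 (161), GATA3 (76.2), ISL1 (36.7), TBX2 (23.5) and LMO1 (4.42). PHOX2A and HAND1 overlapped in their libraries, as did HAND1 and GATA2, and the other neighbours did not. In the ML210 libraries of that label the order and these overlaps did not change.

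HAND2 led the order labelled SK-N-BE(2), at 136 RPKM in controls, followed by PHOX2A (72.3), GATA2 (70.6), TBX2 (55.3), GATA3 (43.5), HAND1 (20.0), ISL1 (13.6) and LMO1 (2.06). HAND1 was thus at rank 2 labelled SK-N-AS and at rank 6 here, and TBX2 at ranks 7 and 4. PHOX2A and GATA2 overlapped in these controls. With ML210, PHOX2A (44.8 RPKM) came after GATA2 (58.9), TBX2 (54.9) and GATA3 (48.5), but each of these overlapped its neighbour, so that PHOX2A and GATA3 did not separate. HAND2 stayed first at 150.1 RPKM. With the length of the longest transcript in place of merged exons, 2 members took another rank in control libraries with the label SK-N-BE(2) and the overlap of PHOX2A and GATA2 was gone.

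**Figure D4:**
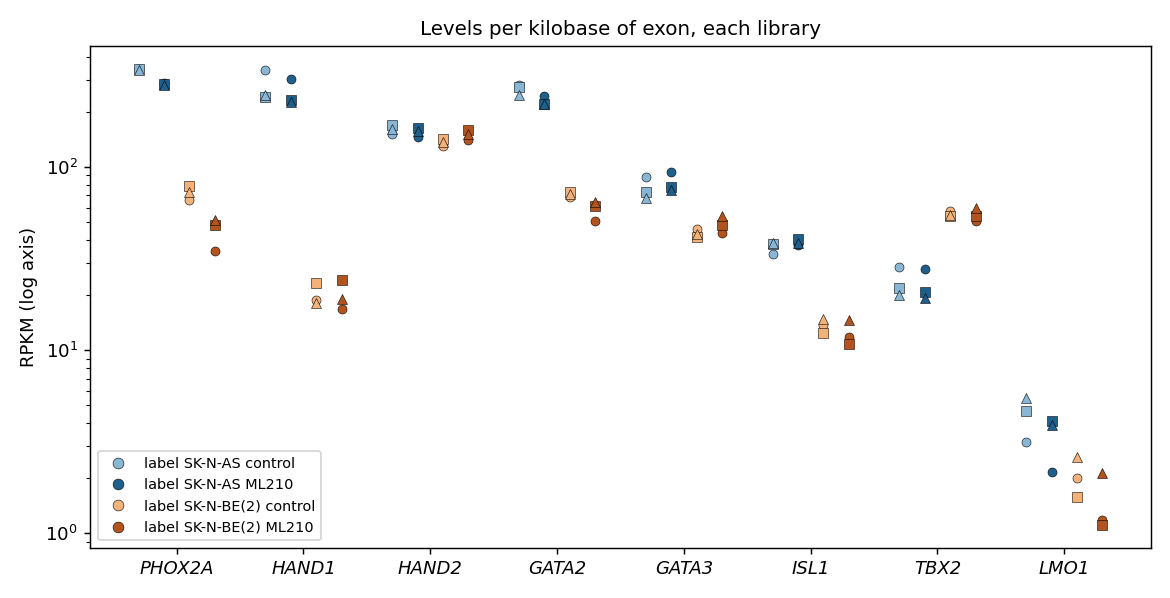
Levels per kilobase of merged exon (RPKM, log axis) of the 8 factors; each point is 1 library, coloured by group and shaped by batch as circle (1), square (2) and triangle (3). HAND2 stays between 129.7 and 168 RPKM in all controls, while HAND1 drops from a mean of 275 to 20.0 RPKM between the labels and LMO1 is lowest in every group.

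The 8 factors did not share 1 pattern. Over the 12 libraries, the root mean square distance between log2 CPM profiles, each centred on its own mean, was smallest for GATA2 and ISL1 (0.271), PHOX2A and GATA2 (0.315) and HAND2 and GATA3 (0.365), and largest for HAND1 and TBX2 (2.50). All profiles share the same libraries, and the line label dominates these distances, which are given as a description. For each member, the 3 closest protein-coding genes outside the lists were taken from 10340 genes at a mean log2 CPM of at least 2.

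CCDC33 (0.165), the retinol transporter gene STRA6 (0.172) and the cGMP phosphodiesterase PDE9A (0.182) lay closest to PHOX2A. CCDC33 went through 20.0, 17.4, 3.83 and 2.15 CPM in controls and ML210 labelled SK-N-AS and then labelled SK-N-BE(2), and STRA6 through 225, 195, 50.1 and 35.7 CPM. Closest to HAND1 were MTSS1 (0.156), NECTIN1 and PRCP, and to HAND2 NOP10 (0.051), NBDY and RAB7A. GATA2 lay near the mitotic genes GTSE1 (0.092) and NCAPD3 and near GSE1. Among the genes nearest to GATA3 were MTHFSD (0.092) and PIGQ (0.095). SLC29A2, NPAT and ATM lay at 0.091 from ISL1, and PPFIBP1 (0.105), CPSF1 and SLC35G1 lay closest to TBX2. For LMO1, at few reads, the nearest genes FAM78B (0.221), CAMK2N1 and CHRM3 lay farther off than the nearest genes of the other 7 members.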

How the data were processed

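The deposited values were raw counts per gene made by the authors. Per the submitters' processing notes, featureCounts 2.0.5, HISAT2 2.2.1, Trimmomatic (1.4) and FastQC were used with the builds hg38 and GRCh38. Not given in the sources used here are the annotation, the strand setting and the handling of multi-mapping reads and read pairs. Library totals lay between 54047293 and 83481963. Symbols came from a reference of gene names, and coordinates and exon lengths from GENCODE release 29, because the table held no gene length, which the planned RPKM had assumed.

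Counts were fitted with edgeR 4.0.16 in R 4.3.3: filterByExpr by group (20304 genes), TMM scaling, all 12 libraries in 1 fit (8 residual degrees of freedom), and the robust quasi-likelihood test, two-sided, with Benjamini-Hochberg adjustment over all genes. Genes were called at an adjusted p under 0.05. Log2 CPM used a prior count of 2. The method was tested on simulated data. The 5 comparisons were ML210 against control under each label, the difference of these responses, and the labels in control and in ML210 libraries. Those between ML210 and control share their controls with those between labels.

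The batch label pairs same-numbered libraries. Deviations from the group means were correlated between control and ML210 libraries. Labelled SK-N-AS, same-batch pairs gave 0.357, 0.0677 and 0.121, and pairs of different batches lay between -0.269 and 0.189. The same-batch pairs of batches 2 and 3 thus did not stand out there. Labelled SK-N-BE(2), same-batch pairs gave 0.0957, 0.12 and 0.169, and pairs of different batches lay between -0.1 and -0.00693. Blocked values stand beside a result where they change its call. DESeq2 1.42.0, other scalings, no filter, the compared groups alone and leaving out each library were the alternatives. The members and lists were chosen with earlier results of these data known. Beside all members, the text names up to 4 called genes of a list with the smallest adjusted p, those needed to state a small count, and the 3 genes closest to a member. LDB1, the paralogs beside members and the genes named with the block were chosen after their values were seen. Some genes that these rules would name are not reported here.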

Additional observations from a re-analysis of the deposited data

How the results depend on the processing

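Genes called with ML210 labelled SK-N-AS were 6, and 33 with no filter, 38 with the replicate block, 35 with only the groups compared, 52 with DESeq2 and 3 to 5 with 1 library left out. Members called lower there were 0, and 1 (PHOX2A) with only the groups compared. Genes called labelled SK-N-BE(2) were 279, and 556 with no filter, 1386 with the replicate block, 77 with only the groups compared, 790 with DESeq2 and 49 to 1212 with 1 library left out; members called lower were 1, and 2, 2 and 0 under the first 3 of these and 0 to 2 with 1 library left out. For the difference of the responses 1 gene was called, and 24 with no filter, 85 with the block, 45 with DESeq2 and 0 to 155 with 1 library left out; a fit of only the groups compared is the full fit there and was not run. Between the labels, leaving out 1 library gave 13308 to 13421 genes in controls and 13151 to 13543 with ML210, with 7 and 6 members lower and 1 higher each time. The HAND2 difference between controls reversed to 0.0132 with library totals. That scaling raised the share of called genes that were higher from 49.1% to 60.7% in controls and from 50.1% to 59.3% with ML210. Without batch 1, added after seeing the data, the mean PHOX2A difference of same-batch pairs labelled SK-N-BE(2) was -0.60. Beyond GATA2 labelled SK-N-BE(2), the replicate block changed no call of a member. The cause of these changes was not tested. LMO1, at 2.49 to 7.47 CPM, is the member whose low counts limit precision most.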
